A study of Mus musculus with 4 samples.

Results

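The 10 transcription regulators studied here were followed through 6 cell classes of the mouse retina: the glial and progenitor factors Sox2, Sox9, Lhx2, Hes1, Rax and Id3, and the 4 nuclear factor I (NFI) genes Nfia, Nfib, Nfic and Nfix. The members were chosen by name, and 9 of the 10 were listed under their own gene among 13452 Ensembl genes. Sox2 was not, and its reads were listed at a locus named by position. The retinas came from wild-type male mice of the inbred C57BL6/J strain and were taken apart with papain; their single-cell cDNA, in 4 libraries, was read as long nanopore reads. Per the labels, 2 libraries had no enrichment (1 of postnatal day 40, the other without a stated age), 1 had CD73 enrichment (postnatal week 8) and 1 had CD90.2 enrichment (postnatal month 4). CD73 marks photoreceptors and CD90.2 marks neurons. The protocol text has the CD73-positive cells depleted on magnetic beads, whereas the series design names fluorescence-activated sorting. The number of mice in a library is not given in the sources used here.

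The deposited counts are given per isoform for amacrine cells, bipolar cells, cones, Müller glia, rods and retinal ganglion cells, with no library named. Each class is therefore 1 pooled sample, no difference between classes was tested, and levels are given as counts scaled to 1000000 per class (CPM) with exact Poisson 95% intervals. Shares carry exact Clopper-Pearson 95% intervals. Both cover counting error alone and take each count as a separate molecule. A molecule may have been read more than once, which would make them too narrow. Differences between cells, mice and libraries are not in them. The classes held from 3509890 counts in ganglion cells and 6133094 in Müller glia to 55437340 in rods, so that a count of 0 allows up to 0.855 CPM in ganglion cells, 0.489 CPM in Müller glia and 0.0541 CPM in rods.

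Müller glia are the radial glia of the retina, which span its depth and keep expressing many genes of retinal progenitors. SOX2 and SOX9 are HMG-box factors of progenitors and glia, LHX2 and RAX are homeodomain factors of the eye field, HES1 is a basic helix-loop-helix repressor downstream of Notch, and ID3 binds E proteins and keeps them from DNA. The NFI proteins share an amino-terminal domain that binds DNA and forms dimers, and differ more in their carboxy-terminal parts, where splicing makes further forms. NFIA, NFIB and NFIX are known for their roles in late retinal progenitors and in Müller glia.

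The 4 NFI genes are shown together because they share 1 large exon of 532 nt, which encodes most of the DNA-binding domain and on which the deposited models differ. Over its 532 positions any pair of the genes was identical at 75.8% (Nfia and Nfic) to 82.0% (Nfic and Nfix), and all 4 genes were identical at 351 positions (65.98%). Its middle 150 positions, 192 to 341, follow, 5′ to 3′, from GENCODE M21 transcripts on mouse build GRCm38. Capitals mark the 100 of these positions (66.7%) that were identical in all 4 genes.
Nfia, chr4:97783273-97783422, plus strand: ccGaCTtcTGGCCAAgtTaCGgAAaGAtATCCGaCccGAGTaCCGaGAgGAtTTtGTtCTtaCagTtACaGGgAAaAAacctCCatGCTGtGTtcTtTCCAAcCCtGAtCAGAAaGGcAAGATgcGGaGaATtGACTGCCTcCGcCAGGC
Nfib, chr4:82498429-82498578, minus strand: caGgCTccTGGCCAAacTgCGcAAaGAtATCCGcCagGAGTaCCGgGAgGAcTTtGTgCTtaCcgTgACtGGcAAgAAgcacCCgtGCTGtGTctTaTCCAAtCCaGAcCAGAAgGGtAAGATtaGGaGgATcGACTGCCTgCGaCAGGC
Nfic, chr10:81420458-81420607, minus strand: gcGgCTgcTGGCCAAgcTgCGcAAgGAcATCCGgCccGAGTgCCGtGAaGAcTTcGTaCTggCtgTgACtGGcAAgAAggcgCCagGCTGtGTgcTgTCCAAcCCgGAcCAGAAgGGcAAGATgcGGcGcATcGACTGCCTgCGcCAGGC
Nfix, chr8:84771975-84772124, minus strand: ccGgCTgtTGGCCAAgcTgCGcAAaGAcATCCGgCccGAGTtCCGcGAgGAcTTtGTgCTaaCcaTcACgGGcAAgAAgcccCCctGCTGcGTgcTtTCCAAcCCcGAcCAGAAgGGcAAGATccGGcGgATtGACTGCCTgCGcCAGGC

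The exons that are used or skipped behind this domain are shown next, because the models of a gene differ by them. Each is a coding exon of M21, in capitals, with 20 bases of the neighbouring exons in lower case. The 148-nt exon is not a multiple of 3 and the other 3 are.
Nfix 148-nt exon, chr8:84716141-84716288, minus strand: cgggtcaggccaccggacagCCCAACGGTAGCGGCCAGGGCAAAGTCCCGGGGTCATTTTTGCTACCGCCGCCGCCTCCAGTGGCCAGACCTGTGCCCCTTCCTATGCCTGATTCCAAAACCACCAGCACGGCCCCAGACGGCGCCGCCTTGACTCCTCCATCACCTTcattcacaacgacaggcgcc
Nfix 123-nt exon, chr8:84723728-84723850, minus strand: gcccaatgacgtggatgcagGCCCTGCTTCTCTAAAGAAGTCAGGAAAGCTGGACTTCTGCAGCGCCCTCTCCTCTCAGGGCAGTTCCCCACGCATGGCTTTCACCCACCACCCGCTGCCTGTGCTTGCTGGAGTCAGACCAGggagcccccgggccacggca
Nfic 126-nt exon, chr10:81406089-81406214, minus strand: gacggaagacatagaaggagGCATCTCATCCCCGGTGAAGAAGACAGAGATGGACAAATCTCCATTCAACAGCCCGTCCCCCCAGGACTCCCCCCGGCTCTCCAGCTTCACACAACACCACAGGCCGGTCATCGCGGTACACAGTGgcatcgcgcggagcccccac
Nfia 129-nt exon, chr4:98041551-98041679, plus strand: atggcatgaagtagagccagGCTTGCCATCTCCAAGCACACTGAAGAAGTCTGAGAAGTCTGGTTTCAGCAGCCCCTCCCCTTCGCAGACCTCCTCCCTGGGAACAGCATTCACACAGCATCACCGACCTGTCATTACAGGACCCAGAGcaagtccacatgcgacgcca

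The set joins glial factors with the NFI family, and Müller glia were the highest class for some members only. Sox9, Lhx2, Hes1, Id3 and the Sox2 locus were highest in Müller glia by at least 3-fold. Nfic was highest in rods, Nfix in amacrine cells and Nfia in bipolar cells, whereas Nfib was at about the same level in Müller glia, bipolar and amacrine cells. Rax had no count in Müller glia. Of the 8 members with at least 20 counts in all, 5 were highest in Müller glia, against 19% of the 12654 genes with as many counts. With the further rule of at least 2 times the level of every other class, 4 of 8 were called for Müller glia, against 10.6% of all genes.

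**Figure D1:**
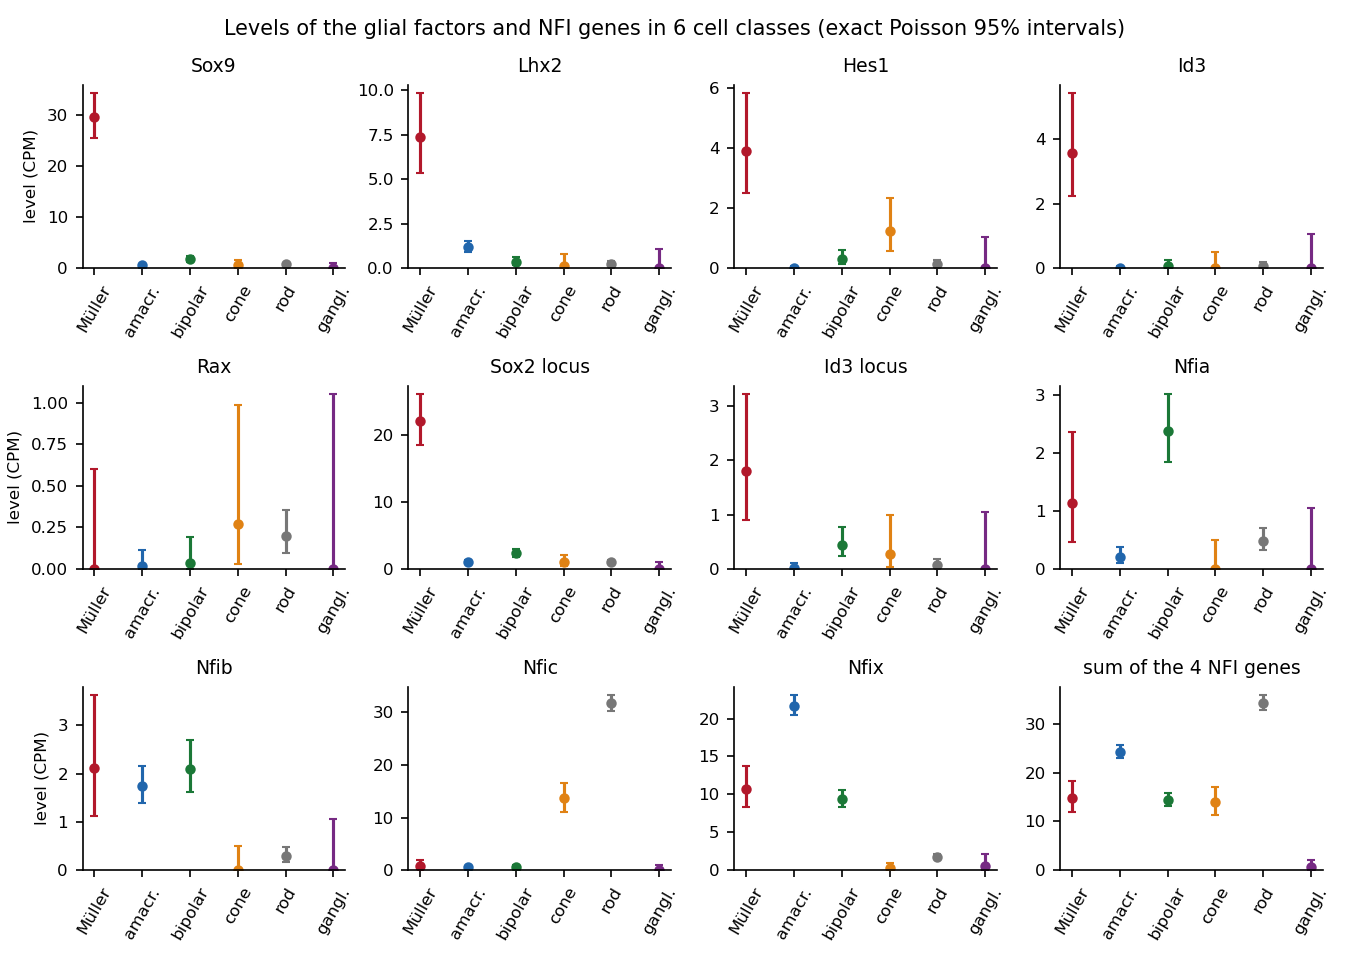
Level of each member in CPM (linear vertical axis, a scale of its own in each panel) in the 6 cell classes. Points are the pooled value of a class and bars are exact Poisson 95% intervals. Sox9, Lhx2, Hes1, Id3 and the Sox2 locus stand highest in Müller glia, Nfix in amacrine cells and Nfic in rods.

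Sox9 (ENSMUSG00000000567.5, chr11:112782224-112787760, plus strand), required for the making of Müller glia, had the most counts among the glial factors listed under their gene. It had 182 counts in Müller glia, 50 in bipolar cells, 42 in rods, 25 in amacrine cells, 5 in cones and 0 in ganglion cells. These are 29.7 CPM in Müller glia (25.5 to 34.3), 1.72 CPM in bipolar cells (1.28 to 2.27), 0.758 CPM in rods, 0.684 CPM in cones and 0.518 CPM in amacrine cells. The Müller glia level was 17.2 times the next, that of bipolar cells (12.5 to 24.0), and its interval overlapped that of no other class. Rods, cones and amacrine cells did not differ beyond their intervals. All 304 counts were on 1 isoform, the annotated 3-exon transcript Sox9-201.

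Sox2 reads were at a locus of 1 exon (chr3:34650914-34652461, plus strand, 1548 nt), which runs from inside the coding sequence of Sox2 to the end of its single annotated exon (34650405 to 34652461). That locus had 135 counts in Müller glia, 68 in bipolar cells, 61 in rods, 49 in amacrine cells, 8 in cones and 0 in ganglion cells. Its level was 22.0 CPM in Müller glia (18.5 to 26.1), 2.34 CPM in bipolar cells (1.82 to 2.97), 1.10 CPM in rods, 1.09 CPM in cones and 1.02 CPM in amacrine cells, again with Müller glia apart from all other classes. The Müller glia level was 9.39 times that of bipolar cells (6.97 to 12.8). Of 1331 protein-coding genes of M21 whose transcripts all have 1 exon, 193 (14.5%) were listed, against 62.5% of the 20620 others. Both shares are over all such genes of M21, whether or not the retina expresses them. They do not show how often an expressed gene of 1 exon lacks an entry. A separate locus of 1 exon inside Sox2ot, the long noncoding RNA that overlaps Sox2, had another pattern (chr3:34638174-34638375, plus strand). It had 92 of its 102 counts in bipolar cells, with 5 in rods, 4 in Müller glia, 1 in cones and 0 in amacrine and ganglion cells.

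Lhx2 (ENSMUSG00000000247.11, chr2:38339281-38369733, plus strand) had 56 counts in amacrine cells, 45 in Müller glia, 12 in rods, 10 in bipolar cells, 1 in cones and 0 in ganglion cells. Scaled to the depth of each class, Müller glia were highest at 7.34 CPM (5.35 to 9.82), followed by amacrine cells at 1.16 CPM (0.877 to 1.51), bipolar cells at 0.345 CPM and rods at 0.216 CPM. The first was 6.32 times the second (4.17 to 9.53), and the intervals did not overlap. The 2 classes used different isoforms. The annotated 5-exon transcript Lhx2-203 had 44 of 45 counts in Müller glia (97.8%, 88.2 to 99.9%) and 9 of 56 in amacrine cells (16.1%, 7.62 to 28.3%). The remaining amacrine counts were on a pair of unannotated isoforms with 21 and 26 counts, of which Müller glia had 0 and 1. The models used here are those of isoforms with a rod count, so the exons of this pair were not analysed here. With annotated isoforms alone, the Lhx2 level of Müller glia was 33.1 times that of the next class.

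Hes1 (ENSMUSG00000022528.8, chr16:30064384-30067796, plus strand) had 24 counts in Müller glia, 9 in bipolar cells, 9 in cones, 7 in rods and 0 in amacrine and ganglion cells. Müller glia were at 3.91 CPM (2.51 to 5.82), cones at 1.23 CPM (0.563 to 2.34), bipolar cells at 0.310 CPM and rods at 0.126 CPM. The ratio of Müller glia to cones was 3.18 (1.43 to 7.77), the lowest of the 4 genes called for Müller glia. The cone counts were of another kind. All 24 counts of Müller glia and all 9 of bipolar cells were on the annotated protein-coding transcript Hes1-201. All 9 counts of cones and 3 of 7 in rods were instead on Hes1-202, a processed transcript that starts upstream and ends inside Hes1 (30064177 to 30065580). Its deposited model began 207 nt before the annotated start. Counted on Hes1-201 alone, cones were at 0, which allows up to 0.411 CPM.

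Id3 (ENSMUSG00000007872.3, chr4:136143497-136145755, plus strand) had 22 of its 28 counts in Müller glia, with 4 in rods, 2 in bipolar cells and 0 elsewhere. These are 3.59 CPM in Müller glia (2.25 to 5.43) and 0.0722 CPM in rods, a ratio of 49.7 (16.9 to 198). No count was on an annotated isoform. The isoforms had 3 exons (17 counts, with 1 splice junction absent from M21) and 4 exons (11 counts). A further locus inside the exons of Id3 (136143864 to 136145392, 2 exons, 828 nt) had 13 counts in bipolar cells, 11 in Müller glia, 4 in rods, 2 in cones and 1 in amacrine cells. With this locus added, Id3 was at 5.38 CPM in Müller glia and 0.517 CPM in bipolar cells, and the ratio came down to 10.4 (5.50 to 20.6).

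Rax (ENSMUSG00000024518.4, chr18:65928277-65939787, minus strand), which specifies the eye field and stays on in Müller glia, had 15 counts in all. They were 11 in rods, 2 in cones, 1 in bipolar cells and 1 in amacrine cells, with 0 in Müller and ganglion cells. The 0 of 6133094 Müller glia counts allows up to 0.489 CPM, which is above the rod level of 0.198 CPM, so no order between these classes was detectable at this depth. The 4-exon isoform had 9 counts. The annotated 2-exon transcript Rax-207, without the 254-nt exon, had 6 counts, all of them in rods.

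**Figure D2:**
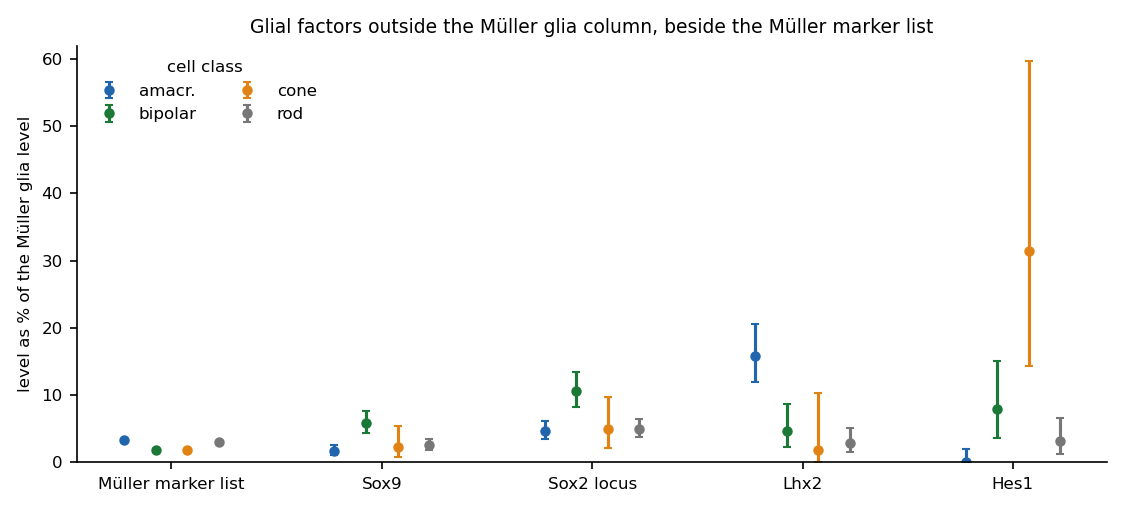
Level of 4 glial factors in amacrine cells, bipolar cells, cones and rods as a percentage of the level in Müller glia (linear vertical axis), beside the summed list of 10 Müller glia markers. Points are pooled values and bars are exact Poisson 95% intervals of the class level. Lhx2 in amacrine cells (15.8%), Hes1 in cones (31.5%) and the Sox2 locus in bipolar cells (10.6%) are the highest in their classes, and the marker list lies between 1.79% and 3.31%. Of the amacrine Lhx2 counts, 9 of 56 were on the annotated transcript, and all 9 cone Hes1 counts were on Hes1-202. In bipolar cells all 4 factors, and in rods and cones the Sox2 locus, have intervals above the marker list. In amacrine cells Sox9 and Hes1 have intervals below it, and 1 marker of the list is highest in that class. The intervals leave out the counting error of the Müller glia level, and Id3 is not shown.

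The levels outside Müller glia were set beside those of a list of 10 Müller glia markers (Glul, Rlbp1, Slc1a3, Aqp4, Kcnj10, Vim, Apoe, Clu, Dkk3, Dbi). Of these, 9 were highest in the Müller glia column. Their sum was 3.31% of the Müller glia level in amacrine cells, 2.998% in rods, 1.85% in cones and 1.79% in bipolar cells. Sox9 was at 1.75% in amacrine cells, 2.55% in rods and 2.31% in cones, with intervals that reach to 2.58%, 3.45% and 5.38%. In amacrine cells it was thus below the marker sum, as were Hes1 and Id3, both at 0 (up to 1.95% and 2.13%). Id3, without the counts of its locus, was at 1.92% in bipolar cells (0.233 to 6.94%), an interval that includes the marker sum. In bipolar cells Sox9 was at 5.81% (4.31 to 7.66%) and the Sox2 locus at 10.6% (8.27 to 13.5%), both above the marker sum of that class, as were Hes1 at 7.93% (3.63 to 15.0%) and Lhx2 at 4.70% (2.25 to 8.64%). The Sox2 locus was also above the marker sum in rods at 4.999% (3.82 to 6.42%) and in cones at 4.97% (2.15 to 9.80%). In amacrine cells it was at 4.61% (3.41 to 6.10%), with a lower limit close to the marker sum of 3.31%. All these intervals leave out the counting error of the Müller glia level. That level rests on 135 counts for the Sox2 locus, 45 for Lhx2 and 24 for Hes1. The Sox2 locus was therefore not resolved from the markers in amacrine cells. Lhx2 in amacrine cells was at 15.8% (11.9 to 20.5%), with 9 of its 56 counts there on the annotated transcript. Hes1 in cones was at 31.5% (14.4 to 59.7%), with all 9 counts on Hes1-202. The Müller glia column also held the highest level of other non-neuronal markers: all 4 listed astrocyte markers (summed 2207 CPM, 459 to 793 CPM in the other classes), all 7 microglia markers, all 3 listed endothelial markers (28.9 CPM, up to 1.17 CPM elsewhere), both listed pericyte markers and 4 of 5 pigment epithelium markers. The 5 pigment epithelium markers summed to 8826 CPM in the Müller glia column and to at most 62.4 CPM elsewhere. Astrocytes and vascular cells also express Sox9, Sox2, Hes1 and Id3. The part of all these non-neuronal cells in the Müller glia values, that of Lhx2 included, was not tested.

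The NFI gene with the most counts was Nfic in rods and cones and Nfix in amacrine cells, Müller glia and bipolar cells. Nfix made up 89.5% of the NFI counts in amacrine cells (87.6 to 91.2%), 72.5% in Müller glia (62.2 to 81.4%) and 64.7% in bipolar cells (59.9 to 69.3%). Nfic made up 92.6% in rods (91.3 to 93.7%) and 98.0% in cones (93.1 to 99.8%). Nfia and Nfib together were the remainder mainly in bipolar cells, at 16.5% and 14.6%, and in Müller glia, at 7.69% and 14.3%. These are shares of counts, which were not divided by transcript length. Summed over the 4 genes, rods were at 34.3 CPM (32.8 to 35.9), amacrine cells at 24.3 CPM (22.9 to 25.7), Müller glia at 14.8 CPM (11.9 to 18.2), bipolar cells at 14.4 CPM (13.1 to 15.9) and cones at 14.0 CPM (11.4 to 16.9). The last 3 did not differ beyond their intervals. Ganglion cells had 2 NFI counts, or 0.570 CPM (0.0690 to 2.06).

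**Figure D3:**
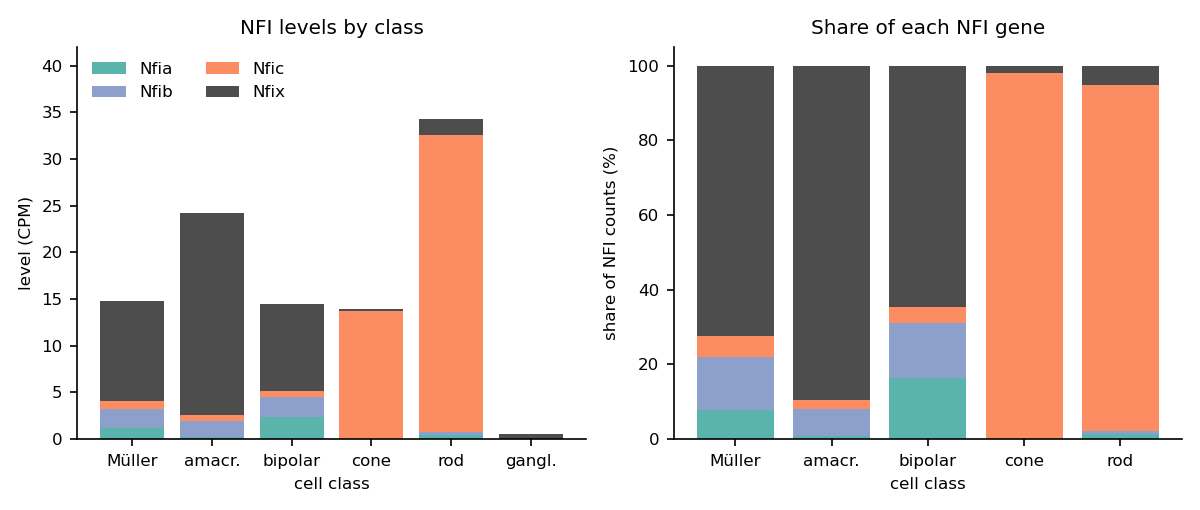
Left, level of the 4 NFI genes stacked in each of the 6 classes (CPM, linear axis from 0); right, the share of each gene in the NFI counts of the class (%). Ganglion cells, with 2 counts, are left out of the right panel. Nfic fills the rod and cone bars and Nfix is the largest part of the amacrine, Müller glia and bipolar bars.

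Nfix (ENSMUSG00000001911.16, chr8:84699876-84800344, minus strand) had 1048 counts in amacrine cells, 271 in bipolar cells, 98 in rods, 66 in Müller glia, 2 in cones and 2 in ganglion cells. Amacrine cells were at 21.7 CPM (20.4 to 23.1), Müller glia at 10.8 CPM (8.32 to 13.7), bipolar cells at 9.34 CPM (8.26 to 10.5), rods at 1.77 CPM, ganglion cells at 0.570 CPM and cones at 0.274 CPM. Amacrine cells stood 2.02 times above Müller glia (1.57 to 2.63), and Müller glia and bipolar cells did not differ beyond their intervals. Nfix was thereby called at least 2-fold higher for amacrine cells, as were 8.01% of all genes, but its interval includes ratios below that rule. The call ended under both other scalings, by TMM factors (1.80) and by the median of ratios (1.503).

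Nfic (ENSMUSG00000055053.18, chr10:81396186-81455635, minus strand) had 1760 counts in rods, 100 in cones, 29 in amacrine cells, 18 in bipolar cells, 5 in Müller glia and 0 in ganglion cells. Rods were at 31.7 CPM (30.3 to 33.3) and cones at 13.7 CPM (11.1 to 16.6), a ratio of 2.32 (1.90 to 2.87). Müller glia at 0.815 CPM (0.265 to 1.90), bipolar cells at 0.620 CPM and amacrine cells at 0.601 CPM did not differ beyond their intervals. It was the only member called at least 2-fold higher for rods, as were 7.03% of all genes, but the call ended under both other scalings, with a ratio of 1.99 by TMM factors and 1.93 by the median of ratios, and the counting interval also reaches below 2. Nfic in cones was at 43.1% (35.1 to 52.4%) of its rod level, and the sum of 6 rod markers (Pde6b, Gnat1, Nrl, Nr2e3, Sag and Cnga1) was at 38.1% there, inside that interval. In Müller glia Nfic was at 2.57% (0.834 to 5.99%) of its rod level and the 6 markers were at 7.28%. The part of rod transcripts in the cone values of Nfic was not tested.

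Nfia (ENSMUSG00000028565.18, chr4:97772734-98118874, plus strand), known for starting gliogenesis in the brain and spinal cord, had 69 counts in bipolar cells, 27 in rods, 10 in amacrine cells, 7 in Müller glia and 0 in cones and ganglion cells. Bipolar cells were at 2.38 CPM (1.85 to 3.01), Müller glia at 1.14 CPM (0.459 to 2.35), rods at 0.487 CPM and amacrine cells at 0.207 CPM. The ratio of bipolar cells to Müller glia was 2.08 with an interval of 0.959 to 5.38, so the order of these classes was not resolved. Nfia was called at least 2-fold higher for bipolar cells, as were 4.44% of all genes, and this call ended with a ratio of 1.94 by TMM factors and 1.72 by the median of ratios.

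Nfib (ENSMUSG00000008575.17, chr4:82290173-82705750, minus strand) had 84 counts in amacrine cells, 61 in bipolar cells, 16 in rods, 13 in Müller glia and 0 in cones and ganglion cells. Müller glia at 2.12 CPM (1.13 to 3.62), bipolar cells at 2.10 CPM (1.61 to 2.70) and amacrine cells at 1.74 CPM (1.39 to 2.16) overlapped, and rods were lower at 0.289 CPM (0.165 to 0.469). The ratio of Müller glia to bipolar cells was 1.01 (0.508 to 1.85). Its place among the 5 members highest in Müller glia therefore rests on a difference inside the counting error.

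Most counts of the members were on isoforms without an annotated identifier, which are not all new forms. The introns of both Nfic models, Nfix isoform 2 (431 counts), Nfia isoforms 1 and 2 (83 and 14) and Nfib isoform 3 (39) are an unbroken part of an annotated transcript. Others, such as Nfix isoform 1 (682 counts), join known splice junctions in a new combination. Of their 4206 counts, 3703 (88.0%, 87.0 to 89.0%) were on isoforms without an Ensembl transcript identifier, against 5.58% over all genes. Nfic alone holds 1912 of these counts; without it the share was 78.1%, and without Nfic and Nfix it was 45.5%. More than 50 percent of the counts were unannotated in 5 of 8 members, Id3 and the 4 NFI genes, against 32.6% of all genes. Their splice junctions were nearly all known ones: 58 of their 60 distinct splice junctions (96.7%) were in M21, against 94.4% over all models.

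**Figure D4:**
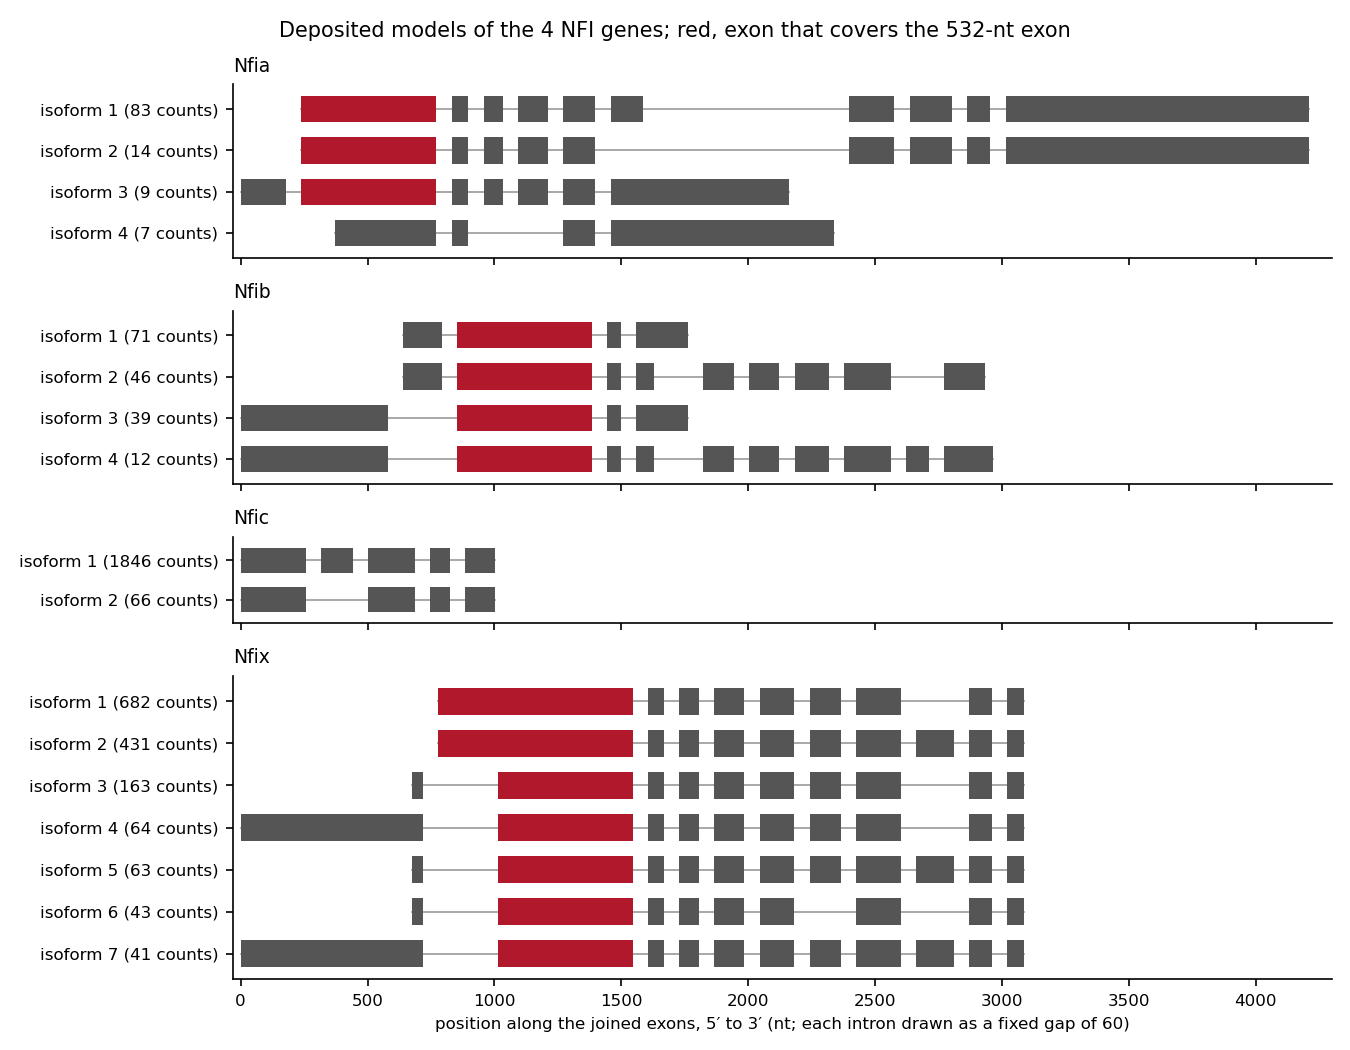
Deposited transcript models of the 4 NFI genes, with exons to scale (nt) and each intron drawn as a fixed gap. Red exons cover the whole 532-nt exon that encodes most of the DNA-binding domain; the counts of each isoform over the 6 classes stand beside its name. Neither Nfic model has a red exon.

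The 532-nt exon shown above was covered by the models of all 1487 Nfix counts, by those of all 168 Nfib counts with a model and by those of 106 of 113 Nfia counts. For Nfic it was covered by none of 1912. Both Nfic models began at 81407811, downstream of that exon (81420267 to 81420798). In both, the first exon (81407555 to 81407811) runs 132 nt upstream of its annotated form. The longer, of 5 exons and 764 nt, had 1846 counts (96.5% of Nfic), and the shorter, of 4 exons and 638 nt, had 66. They differ by the 126-nt exon shown above, which was in 1701 of 1760 rod counts (96.6%, 95.7 to 97.4%), 93 of 100 cone counts (93.0%, 86.1 to 97.1%) and all 29 amacrine, 18 bipolar and 5 Müller glia counts. Rods and cones thus did not differ beyond their intervals. Whether these molecules end there or are the far parts of longer ones cannot be told apart from the counts.

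Nfix transcripts differed between Müller glia and amacrine cells by the 148-nt exon shown above. It was in 449 of 1048 amacrine counts (42.8%, 39.8 to 45.9%), 64 of 271 bipolar counts (23.6%, 18.7 to 29.1%), 20 of 98 rod counts (20.4%, 12.9 to 29.7%) and 0 of 66 Müller glia counts. The last allows a share of up to 5.44% by the exact interval, and it overlaps the interval of none of the other 3 classes. Among 4642 exons that could be skipped and had counts enough in both amacrine cells and Müller glia, 16.8% differed by as much as 25 percentage points. In M21 the exon is whole in the coding sequence of Nfix-204 and Nfix-205. In the transcripts without it, Nfix-201 to Nfix-203, the reading frame ends in the 92-nt exon that follows, and in Nfix-204 it goes on to the last exon. The annotated forms with and without the exon thus encode different carboxy-terminal ends.

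The exon was at 0 in Müller glia for either kind of start. Among Nfix isoforms whose model began inside the intron before the 532-nt exon, 46.1% of amacrine counts and 0 of 42 Müller glia counts had the 148-nt exon. Among those with an upstream first exon, it was in 33.1% of amacrine counts and 0 of 24 Müller glia counts. All 24 came from models that begin at 84773396, and among these the exon was in 48 of 168 amacrine counts (28.6%, 21.9 to 36.0%) and in Müller glia at 0 with an upper limit of 14.2%. The remaining 92 amacrine counts of this kind began at 84774072, where Müller glia had no count. The models that began inside that intron extend the 532-nt exon by 235 nt. They made up 75.2% of amacrine counts (72.5 to 77.8%), 82.7% of bipolar counts (77.6 to 87.0%), 63.6% of Müller glia counts (50.9 to 75.1%) and 56.1% of rod counts (45.7 to 66.1%).

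**Figure D5:**
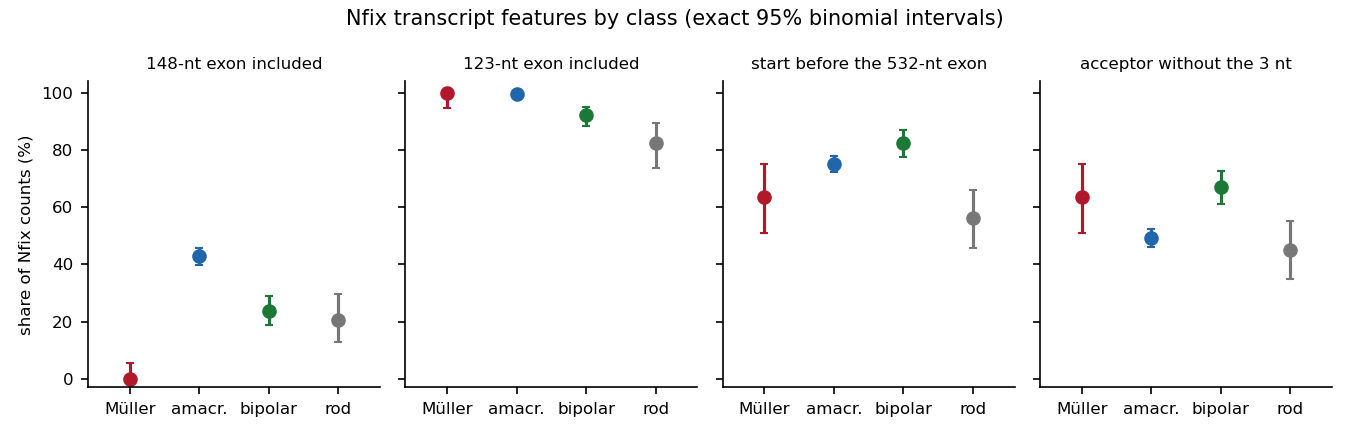
Share of Nfix counts (%) in Müller glia (66 counts), amacrine cells (1048), bipolar cells (271) and rods (98) whose model has the 148-nt exon, has the 123-nt exon, begins in the intron before the 532-nt exon, or uses the acceptor without the 3 nt. Points are pooled shares and bars are exact 95% binomial intervals. The 148-nt exon is at 0 in Müller glia and at 42.8% in amacrine cells.

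The 123-nt exon of Nfix was in nearly all counts of Müller glia and amacrine cells, which did not differ beyond their intervals. It was in all 66 Müller glia counts (94.6 to 100%), 99.5% of amacrine counts, 92.3% of bipolar counts (88.4 to 95.1%) and 82.7% of rod counts (73.7 to 89.6%). Bipolar cells and rods were below amacrine cells beyond their intervals, and the exon-skipping form, Nfix isoform 6, had 21 of its 43 counts in bipolar cells and 17 in rods. Nfix also has an acceptor that keeps or leaves out 3 nt, printed here with 20 bases on either side and the 3 nt in capitals.
Nfix junction with the 3 nt: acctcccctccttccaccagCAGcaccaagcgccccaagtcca
Nfix junction without the 3 nt: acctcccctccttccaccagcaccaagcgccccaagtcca
The form without the 3 nt was at 49.3% in amacrine cells (46.3 to 52.4%), 67.2% in bipolar cells (61.2 to 72.7%), 63.6% in Müller glia (50.9 to 75.1%) and 44.9% in rods (34.8 to 55.3%). In Müller glia this form was Nfix isoform 1 alone (42 counts), which also begins in the intron before the 532-nt exon. Acceptor and start are therefore not separate features there.

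Nfix was listed with 7 isoforms, of which the leading pair held 74.8% of its counts. Isoform 1 (9 exons, 682 counts) lacks both the 148-nt exon and the 3 nt. It led in amacrine cells (425), bipolar cells (172), Müller glia (42) and rods (41). Isoform 2 (10 exons, 431 counts) has both the exon and the 3 nt. It had 363 counts in amacrine cells, 52 in bipolar cells, 14 in rods and 0 in Müller glia. The remaining 24 Müller glia counts were all on isoform 3 (10 exons, 163 counts), which starts upstream and lacks the exon. The annotated Nfix-204 had 63 counts (4.24%).

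Nfib models fell into those that stop early and those that go on. The 4-exon models end 135 nt past the annotated edge of their last exon, and so lack the carboxy-terminal coding exons. They held 52 of 84 amacrine counts, 46 of 55 bipolar counts with a model, 8 of 13 Müller glia counts and 4 of 16 rod counts. The first exon also differed: the one at 82499164 to 82499316 began 71 of 84 amacrine counts, 34 of 55 bipolar counts, 12 of 16 rod counts and 0 of 13 Müller glia counts, whose models all began upstream at 82505310. By isoform, Müller glia had 8 counts on isoform 3 and 5 on the annotated 10-exon Nfib-204, whereas amacrine cells had 40 on isoform 1 and 31 on isoform 2.

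Nfia isoforms had other shares in bipolar cells than in rods. Isoform 1, of 10 exons, had 61 of 69 bipolar counts (88.4%, 78.4 to 94.9%), all 10 amacrine counts, 4 of 7 Müller glia counts and 8 of 27 rod counts (29.6%, 13.8 to 50.2%). Rods had 9 of 27 counts on isoform 3 (33.3%, 16.5 to 54.0%) and 7 on isoform 4, which end soon after the 129-nt exon shown above and had 0 counts in the other classes. Isoform 3 thus led in rods by 1 count. Isoform 2, without the 129-nt exon, had 8 counts in bipolar cells, 3 in Müller glia and 3 in rods. By the rule of a changed leading isoform with at least 50 percentage points between its shares, 2 of 5 members with enough counts were called, Nfia for bipolar cells and rods and Lhx2 for amacrine cells and Müller glia, against 25% of 7317 genes. With all classes at 3509890 counts, only Nfic and Nfix had enough counts to be compared, so that the calls of Lhx2 and Nfia could not be checked at that depth.

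Other genes of the same pathways were taken from lists, since the glial factors act within them. Of 21 Notch pathway genes with at least 20 counts, 5 (23.8%, against 19% of all genes) were highest in Müller glia and 3 (14.3%, against 10.6%) at least 2-fold. The latter were Hes5, a repressor that acts beside HES1 (428 CPM in Müller glia, 26.2 CPM in rods), Lfng, which modifies Notch (38.6 CPM, 2.55 CPM in amacrine cells), and Psen2, a subunit of γ-secretase (58.7 CPM, 25.1 CPM in bipolar cells). Hes6 was highest in bipolar cells (159 CPM), and Dtx3 (114 CPM) and Hey1 (57.6 CPM) in amacrine cells. The median of the list was a log2 ratio of Müller glia to the highest other class of -1.10, beside -0.94 over all genes.

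Of the 6 other Id and E protein genes, 3 were highest in Müller glia and 2 at least 2-fold, beside the same 19% and 10.6% of all genes. Id1 was at 917 CPM in Müller glia and 47.1 CPM in bipolar cells, and Id2 was at 173 CPM and, in ganglion cells, 32.8 CPM. Id4 was at 25.6 CPM in amacrine cells, 20.8 CPM in ganglion cells and 0.652 CPM in Müller glia. Tcf12, which encodes an E protein, was highest in rods (37.0 CPM). The median log2 ratio of the list was 0.02, beside -0.94 over all genes. Bone morphogenetic proteins switch on Id genes, and of 10 genes of that pathway 3 (30%, against 19% of all genes) were highest in Müller glia and 2 (20%, against 10.6%) at least 2-fold, Bmp2 (8 counts there) and Smad6 (9 counts), with a median of -0.29, beside -0.94. The receptor gene Bmpr1a was highest in rods (23.9 CPM), and Bmp7 (6.96 CPM) was highest in bipolar cells. Acvr1 was at 1.38 CPM in bipolar cells and 1.37 CPM in amacrine cells, and Smad1 was at 1.24 CPM in rods and 0.953 CPM in amacrine cells.

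Among other Sox genes, Sox8, a relative of Sox9, was at 12.6 CPM in Müller glia and at most 0.411 CPM elsewhere. Sox5 was at 7.503 CPM in amacrine cells, 6.03 CPM in Müller glia and 5.98 CPM in ganglion cells, and Sox6 was highest in bipolar cells (3.21 CPM); the median log2 ratio of these 3 was -0.27. Sox4, Sox11 and Sox12 were listed only as loci, with 2.28, 2.45 and 2.45 CPM in Müller glia. Sox4 was at 15.1 CPM in ganglion cells and 15.0 CPM in amacrine cells, Sox11 was highest in ganglion cells (19.9 CPM), and Sox12 was at 10.1 CPM in cones and 8.69 CPM in rods. Of 12 retinal homeobox genes and LHX2 cofactors, 4 (33.3%, against 19% of all genes) were highest in Müller glia and 1 (8.33%, against 10.6%) at least 2-fold, with a median log2 ratio of -1.94, beside -0.94 over all genes. Six6 was at 816 CPM there and 500.3 CPM in cones, and Ssbp2 at 174 CPM there and 139 CPM in bipolar cells. Ldb1, the adaptor that LHX2 binds, was at 0.978 CPM in Müller glia (6 counts) and 0.415 CPM in amacrine cells. Pax6 had its highest level, 296 CPM, in amacrine cells, with Müller glia at 27.9 CPM, and Ssbp4 was highest in amacrine cells (172 CPM).

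A mean was taken of the 5 glial factors listed under their gene, with Rax (15 counts) and without the Sox2 locus. Likeness was measured by Pearson's r of log2(CPM + 1), as a description over 6 pooled values. The genes whose levels over the 6 classes were most like this mean were sought among 9860 genes with at least 100 counts. They were Anxa4 (r = 0.999), Slco1c1 (0.997) and Gna14 (0.997), with 20.1, 41.3 and 40.1 CPM in Müller glia and no other class above 1.17 CPM. The mean of the NFI genes, whose members peak in different classes, is flatter, and the genes most like it were Tbc1d9b (0.998), Mrps34 (0.996) and Zcwpw1 (0.989). All genes share the 6 class totals, and the class totals differ in depth.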

How the data were processed

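Single-cell cDNA of 4 mouse retina libraries was sequenced as nanopore reads, per the labels. The authors deposited whole-number counts per isoform in 6 cell class columns and, as coordinates, transcript models named FLAIR, a long-read isoform builder, per the file contents. The build is mm10 per the submitters' processing notes, and genes, exons and sequences are from GENCODE M21 (GRCm38). Whether reads were collapsed to molecules, how cells and doublets were called and which libraries entered a column are not given in the sources used here, so a class is 1 pooled sample and no test was run. Counts were summed per gene and scaled to 1000000 per column (Python 3.11.15, scipy 1.17.1). A gene needed 20 counts for a call, a switch 20 counts in each class. The 36426 models are exactly those isoforms with a rod count. The rules were run on simulated Poisson counts, with changes set only in genes that have more counts than any member. This does not show how the rules behave at the depth of the members or with molecules read more than once. Named were all members, isoforms with at least 5 percent of a member's counts (Nfix-204, Nfix isoform 6 and the shorter Nfic model, under that, were added after their values were seen), and of each list the 4 genes with the most counts and those at least 2-fold higher in Müller glia. Alternatives were edgeR 4.0.16 TMM factors, DESeq2 1.42.0 size factors, equal depth, other minimums and folds, and subsets of isoforms or classes. Members, lists and markers were chosen with earlier results of these data known. Of the listed rod markers, 1 is not reported here.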

Additional observations from a re-analysis of the deposited data

Results flagged for a closer look

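Counts at loci named by position, which no gene total includes, were above the 3 counts that a count of 0 allows. The locus inside the exon of Sox2 had 135 counts in Müller glia. The locus inside the exons of Id3 had 11 counts in Müller glia, and the locus inside Sox2ot had 92 counts in bipolar cells.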

How the results depend on the processing

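In 119 comparisons under other settings, 94 values stayed within their intervals (counts, within 1.5 times) and 25 moved. Only the 58 comparisons of ratios could reverse, and 0 did. Some settings could not change a value, so the tally does not measure stability. Leaving out ganglion cells cannot alter a ratio to Müller glia, since they were never the highest other class. Annotated isoforms alone cannot alter Sox9 or Hes1, which have no others. The count of members highest in Müller glia (5) was 3 with annotated isoforms only and 3 with a minimum of 100 counts, where the count at least 2-fold higher (4) was 2; fewer genes qualify under both. Annotated isoforms alone leave Id3, Nfia and Nfic without a value. With the loci of Sox2 and Id3 counted to their genes, an alternative chosen after seeing the data, these counts were 6 and 5. The count of switches (2) was 0 at 100 counts per class and 0 at equal depth, where 2 members, Nfic and Nfix, could be compared in place of 5 and Lhx2 and Nfia could not, and 1 with models of at least 2 exons, which drops the Lhx2 isoforms without a model. The unannotated share (88.0%) was 75% as a share of isoforms (60.3% over all genes, against 5.58% of counts) and, in alternatives chosen after seeing the data, 78.1% without Nfic and 45.5% without Nfic and Nfix. Scaling by the median of ratios raised Müller glia over amacrine cells by 0.43 (log2) for all genes and over rods by 0.37; the NFI sum was then 21.3 CPM in amacrine cells and 31.3 CPM in rods, and 32.5 CPM in rods with TMM factors. Nfix in Müller glia was at 0.665 of its amacrine level by the median of ratios and 0.556 by TMM factors, in place of 0.495, and the 2-fold calls of Nfix, Nfia and Nfic for their highest class, checked after seeing the data, ended under both. Nfib was 4.73-fold higher in Müller glia than in the next class with annotated isoforms only, from 12 counts in all, 5 of them in Müller glia, under the minimum of 20. Of the 3 genes most like the NFI mean, 0 were found again with a pseudocount of 0.1 or 10 CPM and 1 with Spearman's rank correlation, and 0 of those most like the glial mean with Spearman's rank correlation. No paired analysis was possible because no class column is tied to a library, and no library could be left out for the same reason. Depth limits Rax, Id3 and Hes1 most, with 15, 28 and 49 counts.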
